A study of Mus musculus with 2 samples.

Results

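The genes examined are 10 transcription factors and coactivators that drive or restrain smooth muscle differentiation: Myocd, Srf, Mkl1, Mkl2, Klf4, Klf5, Mef2c, Elk1, Foxo4 and Gata6. They were taken by gene name from the non-control spots of the arrays, which gave 17 probes in 68 spots, and all 10 were among the 21143 genes tested. RefSeq now calls Mkl1 Mrtfa and Mkl2 Mrtfb, and the names of the files are kept here. The RNA came from ureters of NMRI mouse pups at postnatal day 4. The Rbpj-cKO pups were Tbx18(cre/+);Rbpj(fx/fx), and the controls were Tbx18(+/+);Rbpj(fx/n.d.), with a second Rbpj allele that was not determined. The groups thus differ in the cre-bearing Tbx18 allele as well as in Rbpj, all animals carry at least 1 floxed Rbpj allele, and no control carries cre. Cre under Tbx18 acts in the mesenchyme that forms the muscle coat and fibroblasts, whereas RNA of the whole ureter also holds epithelium, vessels and attached tissue. In such bulk RNA, fewer cells of a type and less RNA per cell cannot be told apart. Array 1 compared the RNAs of a pair labelled female and array 2 those of a pair labelled male in the opposite dye orientation, which leaves n = 2 ratios per gene.

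Serum response factor (Srf) binds the CArG box, a short sequence in promoters and enhancers, and what it activates depends on its partner. Myocardin (Myocd), made in smooth and cardiac muscle, and the related coactivators Mkl1 and Mkl2, which leave the cytoplasm when actin polymerises, turn on contractile and cytoskeletal genes. Elk1, a ternary complex factor phosphorylated by the MAP kinase ERK, competes for the same surface of Srf and turns on immediate early growth genes. Klf4, Klf5 and Foxo4 have been described as brakes on the contractile programme or as drivers of the synthetic, growing state of vascular smooth muscle, and Mef2c and Gata6 as factors upstream of or beside myocardin.

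The promoter of Srf is shown because Srf is known to act on its own gene. This promoter also holds the only exact CArG matches among the 6 regulators whose promoters were at hand. It is set beside the promoters of Egr2, the immediate early target with the lowest mean ratio here, and of Myl9. Of the 14 smooth muscle targets with a promoter at hand, only Myl9 held an exact match in this window. The windows run from 250 bases before to 50 after a RefSeq start (GRCm38.p6), 5′ to 3′ on the strand of the gene, with each match to the CArG consensus in capitals. They are chr17:46556113-46556412 (minus strand) for Srf, chr10:67537619-67537918 (plus strand) for Egr2 and chr2:156775214-156775513 (plus strand) for Myl9.
Srf: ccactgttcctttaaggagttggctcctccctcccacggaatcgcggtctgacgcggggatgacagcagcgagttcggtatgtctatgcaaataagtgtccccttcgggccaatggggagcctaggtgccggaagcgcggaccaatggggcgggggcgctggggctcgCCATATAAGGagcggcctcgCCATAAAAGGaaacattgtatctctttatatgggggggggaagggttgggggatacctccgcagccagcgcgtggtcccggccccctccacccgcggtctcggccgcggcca
Egr2: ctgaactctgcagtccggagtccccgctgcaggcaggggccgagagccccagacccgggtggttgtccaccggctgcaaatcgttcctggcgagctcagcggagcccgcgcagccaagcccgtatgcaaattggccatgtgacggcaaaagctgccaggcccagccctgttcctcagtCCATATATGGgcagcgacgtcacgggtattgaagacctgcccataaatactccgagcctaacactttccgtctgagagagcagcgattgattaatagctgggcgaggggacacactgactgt
Myl9: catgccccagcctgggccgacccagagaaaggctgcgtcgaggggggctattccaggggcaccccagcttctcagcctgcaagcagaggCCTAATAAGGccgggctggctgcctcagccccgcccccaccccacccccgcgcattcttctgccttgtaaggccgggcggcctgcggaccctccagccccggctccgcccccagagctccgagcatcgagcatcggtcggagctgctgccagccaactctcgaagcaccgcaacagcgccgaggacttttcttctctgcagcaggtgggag
In the Srf window the matches begin 82 and 62 bases before the start, in the Egr2 window 72 bases and in the Myl9 window 161 bases before it. The consensus equals its own reverse complement, so a match holds on both strands. Windows were at hand for 6 of the 10 regulators (Srf, Mkl1, Mkl2, Klf4, Mef2c and Elk1), of which only Srf held a match. Of all windows of this length 1.63% held a match, and of all genes with a window 1.81% did. Of the smooth muscle targets 1 of 14 with a window held one, of the actin cytoskeleton targets 3 of 8, and of the immediate early targets 1 of 6. A match is a description of these letters and not a measured binding site. Only exact matches (CC, then 6 bases of A or T, then GG) were counted. Boxes with another base in them, or outside the window, were not looked for, so a gene without a match may still have one.

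Before the members, some values on the RNAs themselves are needed. Rbpj, the deleted gene, had log2 ratios of Rbpj-cKO over control of -0.92 and -1.10 (adjusted p = 0.0873 in limma), measured by a probe whose place relative to the deletion is not known here. The Y-linked genes go against the female label of array 1: Ddx3y had a log2 level of 11.31 in that Rbpj-cKO RNA, against 7.08 in its control. The control RNA of array 2 stood apart in liver genes, with a log2 level of 13.93 for Alb, against 9.83 to 11.27 in the other RNAs. Each array thus holds 1 RNA that departs from its label or its peers, so results are given with both arrays and for each alone. The defining smooth muscle genes Acta2, Myh11, Tagln, Cnn1 and Actg2 and the uroplakins of the urothelium were bright in all 4 RNAs, with log2 levels of at least 14.13. Gene spots were well above background at 72.2% in the Rbpj-cKO and 73.1% in the control channel of array 1, and at 74.0% and 71.8% on array 2.

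None of the 10 regulators passed the test between Rbpj-cKO and control ureters, and their means lay between -0.33 (Mef2c) and 0.15 (Klf5) on the log2 scale. In limma's test over all genes 0 members passed the adjusted threshold of 0.05 (smallest adjusted p 0.37), where 0.00473% of all genes did. At an unadjusted p under 0.05 the members again numbered 0, against 14% of all genes, and limma with trend and robust settings also called 0. No member (0 of 10) was at least 1.5-fold higher or lower on both arrays, where 1.2% of all genes were (0.795% lower and 0.402% higher). The 95% interval of the mean lay inside a 1.5-fold difference in either direction for 9 of the 10, with Mef2c as the exception. These intervals use a spread that limma shares across genes, because 2 arrays leave 1 residual degree of freedom. The 9 include Elk1, read here by a probe that names 3 genes, and Foxo4, whose signal was faint. The Foxo4 ratio on array 1 was -0.17, but -0.29 with the scanner's log ratio, so its narrow interval depends on the processing.

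**Figure D1:**
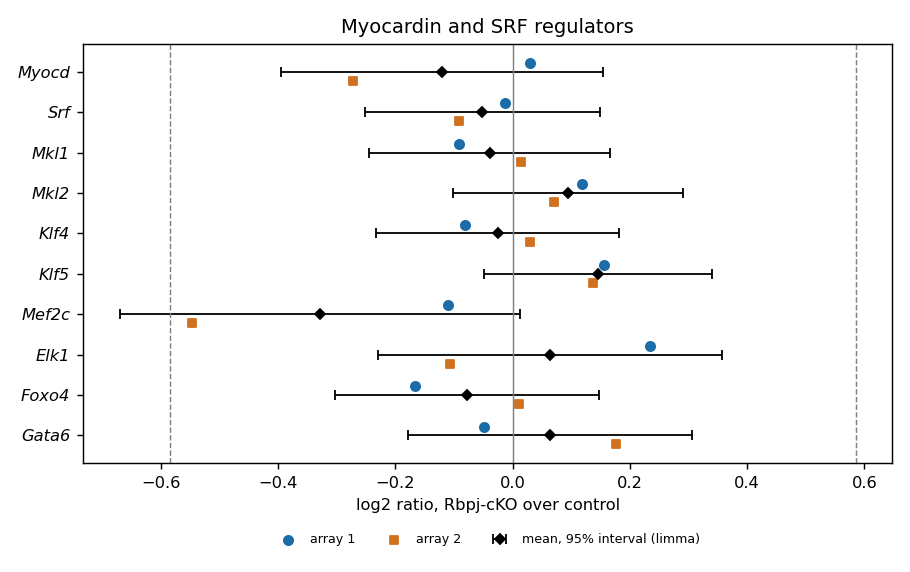
Log2 ratio of Rbpj-cKO over control for each of the 10 genes: circles are array 1, squares array 2, diamonds the mean with its 95% interval from limma, and dashed lines mark a 1.5-fold difference. All intervals cross 0, and only that of Mef2c passes a dashed line, on the lower side.

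The members went each way in about equal numbers. On both arrays 2 members were lower (Srf and Mef2c), where 29.8% of all genes were, and 2 were higher (Mkl2 and Klf5), where 31.7% were. The other 6 had opposite signs on the 2 arrays, where 38.5% of all genes had. The median of the 10 was -0.03 on array 1 and 0.01 on array 2, and over all genes it was -0.01 and 0.01. Levels of the 2 groups did not overlap for 3 members (Mef2c, Mkl2 and Klf5), against 43.1% of all genes, so such separation was no more frequent than in the background. In 7 of the 10 the SD between the arrays was larger than the size of the mean, the others being Mef2c, Mkl2 and Klf5.

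Myocardin itself was nearly level on array 1 and slightly lower on array 2. Its normalized log2 levels were 11.35 and 11.25 in the Rbpj-cKO RNAs, against 11.32 and 11.52 in the control RNAs of arrays 1 and 2. The groups overlap, since the Rbpj-cKO RNA of array 1 lies above its own control and below the control of array 2. The log2 ratios were 0.03 and -0.27, with an SD of 0.02 and 0.05 between the 4 spots of the probe, so the pairs differ by more than the spot scatter. The mean corresponds to 0.919-fold, with an interval from 0.76 to 1.11 (adjusted p = 0.682). The probe lies on chromosome 11 at 64991930-64991989 on the minus strand (mm9).

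Srf, the DNA-binding partner, was close to its control on each array. The levels of its brighter probe were 12.78 and 12.92 in the Rbpj-cKO RNAs, against 12.79 and 13.01 in the controls. The 2 pairs thus differ more from each other than Rbpj-cKO does from control. The ratios were -0.01 and -0.09, with a mean of -0.05 ± 0.06 (SD, n = 2) and a fold interval from 0.839 to 1.11. A second probe, at 46685306-46685365 on chromosome 17 (mm9), gave -0.09 and -0.08, so both probes were lower on both arrays by small amounts.

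Mkl1 and Mkl2, the actin-regulated coactivators, were also close to their controls. For Mkl1 the levels were 12.18 and 12.41 in Rbpj-cKO, against 12.27 and 12.39 in control RNAs. Those values overlap, and its 2 probes, both on chromosome 15, had means of -0.04 and 0.01. For Mkl2 the brightest probe had 14.25 and 14.15 in Rbpj-cKO, against 14.13 and 14.08 in control RNAs. Here both Rbpj-cKO RNAs lie above both controls, by ratios of 0.12 and 0.07 (mean 0.09 ± 0.03, adjusted p = 0.654). The other 2 probes of Mkl2 went the opposite way, with means of -0.04 and -0.08. Both are much fainter, with log2 levels between 7.03 and 7.68. One of these is assigned to a different transcript variant (13332950-13333009 on chromosome 16, mm9) from the brightest probe (13417529-13417588). With the mean over the probes of Mkl2 the ratio was -0.01, so its direction depends on the probe.

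**Figure D2:**
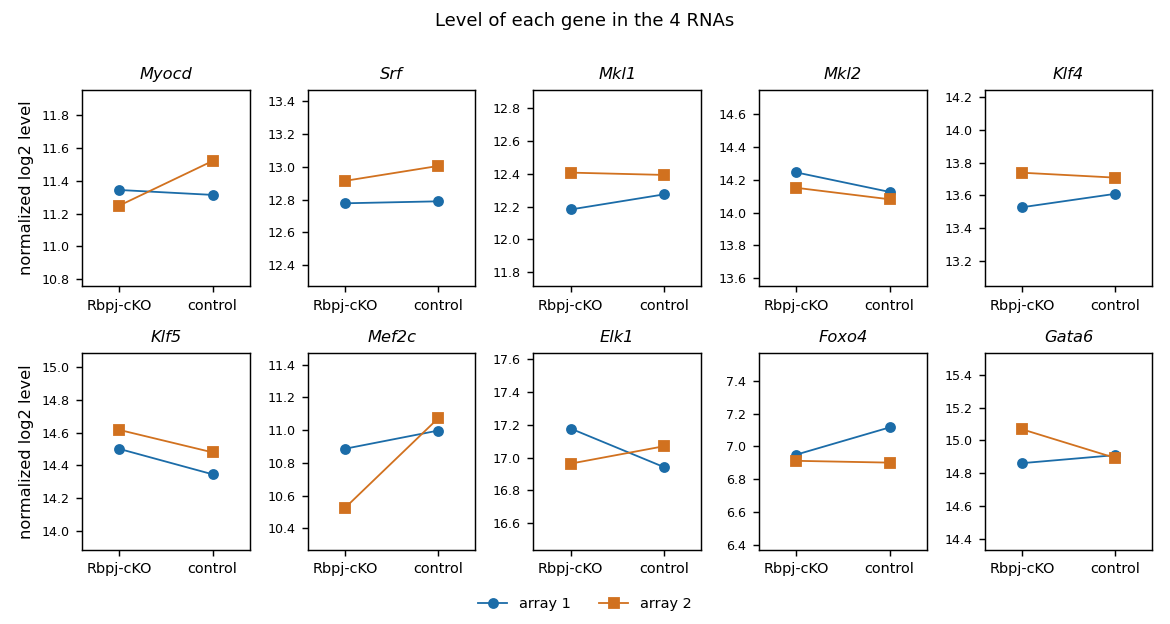
Normalized log2 level of each gene in the Rbpj-cKO RNA (left) and the control RNA (right) of array 1 (circles) and array 2 (squares), with a line joining each pair; every panel spans the same range of log2 units around its own centre. Most lines are nearly flat, and that of Mef2c on array 2 is the steepest, ending at 10.53 in Rbpj-cKO and 11.07 in control.

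Elk1, the competitor of myocardin for Srf, was represented by 2 probes that went opposite ways on each array. The brighter had levels of 17.18 and 16.96 in Rbpj-cKO, against 16.94 and 17.07 in controls, which makes it brighter than 99.5% of all genes. Its accessions in the files name 3 RefSeq genes, Elk1, Glrx2 and Mfsd4a, so its signal cannot be assigned to Elk1. The probe at 20512461-20512520 on chromosome X (mm9), whose accessions name Elk1 alone, had 8.32 and 8.43 in Rbpj-cKO, against 8.50 and 8.39 in controls. Its ratios were -0.18 and 0.04, with spot SDs of 0.06 and 0.09 (adjusted p = 0.804 in limma when it represents the gene, an analysis added after the values were seen). Neither probe separates the groups.

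The ratios of the bright Elk1 probe, 0.23 on array 1 and -0.11 on array 2, have the signs of very bright probes in general. Of the 100 brightest genes, a number chosen after the values were seen, 86 were higher on array 1 and lower on array 2, against 16.1% of all genes. Their median was 0.24 on array 1 and -0.24 on array 2. Because the dyes were exchanged, these signs mean a brighter red channel on both arrays, and the part of this in the ratios of bright genes was not tested.

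Among the brakes on contractile differentiation no member stood out. Klf4, the repressor of myocardin-dependent genes, had 13.53 and 13.74 in Rbpj-cKO RNAs, against 13.61 and 13.71 in controls. Its mean was -0.03 ± 0.08 (n = 2), and the groups overlap. Foxo4, which binds myocardin and holds back its activity, had 6.95 and 6.91 in Rbpj-cKO, against 7.12 and 6.90 in control RNAs. It was the faintest member, brighter than 5% of all genes, and the SD between its spots on array 1 (0.21) exceeded its ratio there (-0.17). A neighbouring probe of Foxo4 had a mean of -0.07, and the third was not well above background in any RNA.

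Klf5, which promotes growth of smooth muscle and is also abundant in epithelia, had the highest mean of the members and the closest agreement between arrays. Its levels were 14.50 and 14.62 in Rbpj-cKO RNAs, against 14.35 and 14.48 in controls. Both Rbpj-cKO RNAs lie above both controls, with the margin between the Rbpj-cKO RNA of array 1 and the control of array 2 the narrowest. The ratios were 0.16 and 0.14 (mean 0.15 ± 0.01, 1.11-fold, interval 0.967 to 1.27, adjusted p = 0.471). The coordinates of the probe run from 99702656 to 99712388 on chromosome 14 (mm9), which is longer than a 60-base probe and so spans a gap in the genome. Beside it, urothelium markers were higher on both arrays for 4 of 10 and lower for 0, where 31.7% and 29.8% of all genes were. Their medians were 0.33 and 0.03. Their summed linear level was 874800 in Rbpj-cKO and 684300 in control RNA on array 1, but 813000 and 826600 on array 2. The pairs thus went opposite ways in this sum. Of these markers 5 were higher on array 1 and lower on array 2, the signs of most of the brightest genes. The part of the urothelium markers in the ratio of Klf5 was not tested.

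Mef2c, a MADS-box factor of muscle and endothelium that activates the Myocd gene in heart, had the lowest mean of the members. Its levels were 10.89 and 10.53 in the Rbpj-cKO RNAs, against 11.00 and 11.07 in controls. Both Rbpj-cKO RNAs were below both controls, but by unlike amounts, with ratios of -0.11 and -0.55. The spot SDs of 0.06 and 0.05 are small beside that gap between the pairs. The mean was -0.33 ± 0.31 (n = 2), or 0.796-fold with an interval from 0.628 to 1.01, and the adjusted p was 0.37. Of all genes 5.43% had a mean as low or lower, and without array 1 the value is -0.55, without array 2 it is -0.11. In the same RNAs the endothelium markers were lower on both arrays for 5 of 7 and higher for 0. Of all genes 29.8% were lower and 31.7% higher on both. The medians of the endothelium markers were -0.25 and -0.11, with summed levels of 67500 to 67710 in Rbpj-cKO and 72050 to 92770 in control RNAs. Skeletal muscle markers were lower on both arrays for 5 of 7 measured and higher for 1. Their medians were -0.24 and -0.40, with sums of 46500 to 51060 in Rbpj-cKO and 59550 to 59570 in control RNAs. The part of either list in the ratio of Mef2c was not tested.

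Gata6, a zinc finger factor linked to the quiescent, contractile state of vascular smooth muscle, went opposite ways in the pairs. It had 14.86 and 15.07 in Rbpj-cKO RNAs, against 14.91 and 14.89 in controls. The Rbpj-cKO RNA of array 2 is the highest of the 4 and that of array 1 the lowest, so the groups overlap. The ratios were -0.05 and 0.18, with a mean of 0.06 ± 0.16 (adjusted p = 0.829). This split of Gata6 depends on the processing. Median centring exchanged the signs, giving 0.13 on array 1 and -0.08 on array 2. In the series table Gata6 was higher on both arrays (0.11 and 0.13), as it was by the scanner's ratio (0.06 and 0.14).

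**Figure D3:**
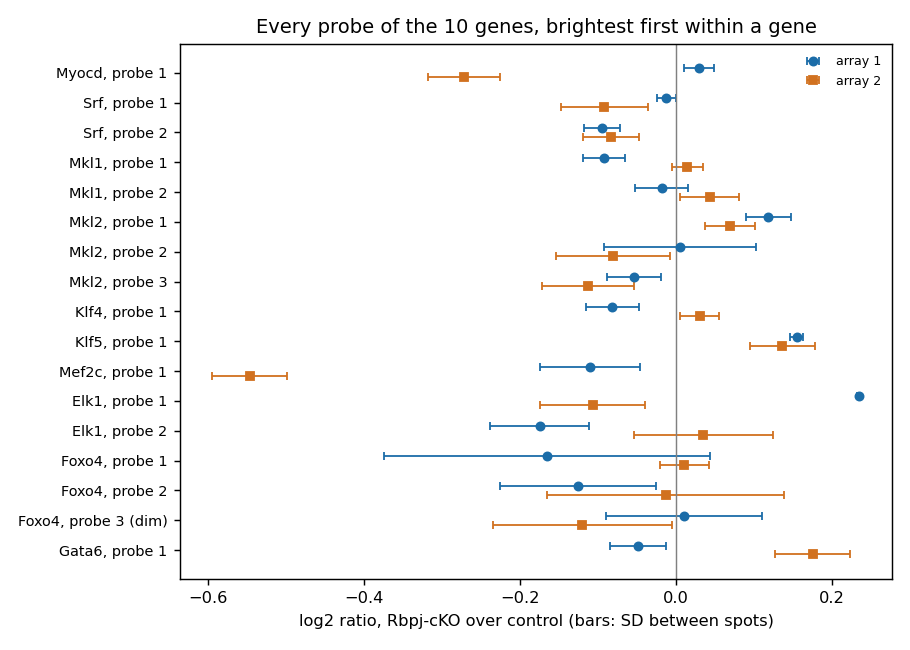
Log2 ratio of Rbpj-cKO over control for all 17 probes of the 10 genes, by array, with bars for the SD between the up to 4 spots of a probe. By their mean over the arrays, the probes of Elk1, of Mkl1 and of Mkl2 lie on both sides of 0. The largest gap between arrays is that of Mef2c (-0.11 and -0.55).

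While the regulators were near 0, genes known as smooth muscle targets of Srf and myocardin were mostly lower. Of 18 such genes, 15 had negative ratios on both arrays and 0 had positive ratios on both, where 29.8% and 31.7% of all genes were. Their median was -0.09 on array 1 and -0.33 on array 2, against -0.01 and 0.01 over all genes, and the levels of the groups did not overlap for 13, against 43.1% of all genes. None passed over all genes in limma (0 of 18, smallest adjusted p 0.116), and 8 had an unadjusted p under 0.05, as 14% of all genes had. That this list is lower was known from earlier results on these data, so its direction is no independent evidence. With median centring in place of loess only 6 of 18 were lower on both arrays, because the median became 0.27 on array 1 and stayed negative, at -0.74, on array 2. Under the scanner's log ratio 15 of 18 were lower on both arrays, with medians of -0.19 and -0.24. The gap between the arrays in this list thus depends on the processing. In the same RNAs the adipocyte markers were lower on both arrays for 8 of 8, with sums of 137800 to 151500 in Rbpj-cKO and 294400 to 765800 in control RNAs. Skeletal muscle markers were lower on both arrays for 5 of 7 and higher for 1, with means from -1.38 (Myh8) to 0.08 (Myog). Between these lay Ckm at -0.80 ± 0.02, Tnnc2 at -0.86 ± 0.01 and Acta1, the brightest of them, at -0.15 ± 0.12. Desmin is also a skeletal muscle protein. Fibroblast markers were higher on both arrays for 3 of 5 and lower for 0, with medians of 0.41 and 0.34 and sums of 557500 to 566300 in Rbpj-cKO and 456500 to 480100 in control RNAs. The part of these lists in the ratios of the targets was not tested.

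Among the named targets the lowest mean was that of Des. Des, the intermediate filament protein desmin, had levels of 12.55 and 12.84 in Rbpj-cKO, against 13.37 and 13.49 in control RNAs, with a clear gap between the groups. Its ratio of -0.82 and -0.65 was the only one in the list beyond 1.5-fold on both arrays (adjusted p = 0.116). Cald1, the actin-binding caldesmon, had -0.44 ± 0.12, Synpo2, an actin-bundling protein of the Z-disc, -0.40 ± 0.11, and Actg2, enteric smooth muscle actin, -0.40 ± 0.22. Smtn, smoothelin, had -0.30 ± 0.03. By contrast Acta2 and Tagln, the actin and transgelin of smooth muscle, were split, with 0.20 and -0.36 for Acta2 and 0.20 and -0.34 for Tagln on arrays 1 and 2. Myl9, whose promoter is printed above, was also split, with 0.08 and -0.30. These are signs that most of the brightest genes share.

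Targets of Srf in the general actin cytoskeleton did not lean the same way. Of 12 genes, 1 was lower and 5 were higher on both arrays, where 29.8% and 31.7% of all genes were. Their medians were 0.14 and 0.04. In limma 0 passed (smallest adjusted p 0.182), and 1 had an unadjusted p under 0.05, against 14% of all genes. Ccn2, the matrix protein connective tissue growth factor, had levels of 13.08 and 13.31 in Rbpj-cKO, against 12.68 and 12.91 in control RNAs. Its ratios of 0.40 and 0.40 nearly coincided. Tuft1 had 0.24 ± 0.17, the non-muscle tropomyosin Tpm4 0.16 ± 0.02, the LIM protein Fhl2 0.11 ± 0.10 and the myosin heavy chain Myh9 0.07 ± 0.09. Vcl, vinculin of adhesion plaques, was lower, with -0.08 ± 0.06. Actb had 0.21 and -0.31, again the signs of bright probes, and Ccn1, a matrix protein related to Ccn2, -0.18 and 0.36.

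The immediate early genes, which Srf drives together with Elk1 and its relatives, had means near 0 apart from Egr2 and Egr1. Of these only Egr2, a faint gene, went the same way on both arrays. Of 8 measured members (Egr3 was too dim), 2 were lower and 1 higher on both arrays, where 29.8% and 31.7% of all genes were. Their medians were -0.02 and -0.01. In limma 0 passed, and 1 had an unadjusted p under 0.05, against 14% of all genes. Egr2, whose promoter is printed above, had levels of 7.98 and 8.26 in Rbpj-cKO, against 8.64 and 8.67 in control RNAs, a mean of -0.54 ± 0.18 (adjusted p = 0.179). Egr1 had -0.67 on array 1 and 0.19 on array 2. Fos, the partner of Jun in AP-1, had 0.04 ± 0.04 and Nr4a1, an orphan nuclear receptor, -0.10 ± 0.04.

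**Figure D4:**
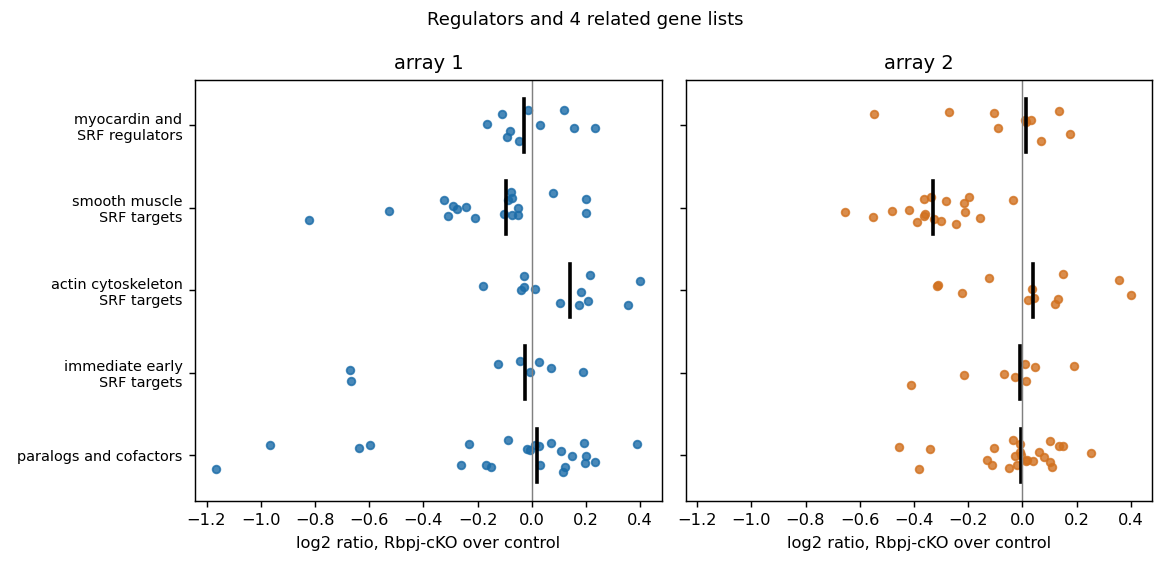
Log2 ratio of Rbpj-cKO over control of the genes of 5 lists on array 1 (left) and array 2 (right); each point is a gene and each black bar the median of its list. The bars of the regulators lie near 0 (-0.03 and 0.01), and those of the smooth muscle targets lie lower (-0.09 and -0.33).

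Relatives and cofactors of the members divided evenly, with a few low values. Of 24 measured genes (Abra was too dim), 7 were lower and 7 higher on both arrays, where 29.8% and 31.7% of all genes were. Their medians were 0.02 and -0.01. In limma 0 passed (smallest adjusted p 0.158), and 5 had an unadjusted p under 0.05, against 14% of all genes. Ablim3, an actin-binding LIM protein of the pathway that frees the Mkl factors, had 12.12 and 12.21 in Rbpj-cKO, against 13.09 and 12.59 in control RNAs. Its mean was -0.67 ± 0.41, with both Rbpj-cKO RNAs below both controls. Klf15, described as a repressor of myocardin in heart, had -1.16 and -0.11. In the same RNAs the medians of the adipocyte markers were -2.90 and -1.37, and their part in the ratios of Ablim3 and Klf15 was not tested. Fhl1, a LIM protein of muscle, had -0.55 ± 0.13, Mical2, a nuclear actin oxidase that activates Mkl1, -0.30 ± 0.06, and Klf2, a factor of vascular endothelium, -0.36 ± 0.33. Gata3 had 0.23 ± 0.04.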

How the data were processed

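The authors hybridised labelled cRNA of Rbpj-cKO and control ureters to 2 two-colour Agilent arrays with 60-base probes. The deposited spot intensities were extracted with Agilent Feature Extraction 10.7.3.1, per the submitters' processing notes. The deposited log10 ratio sets the red against the green processed signal, per the file headers. The authors' deposited series table holds a score of unstated origin. It was read as a signed fold change, and its centring and floor stay unknown.

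From the intensities, normexp (offset 50), loess within arrays and an average over spots without outlier flags gave log2 ratios, and levels per RNA came from a further Aquantile step. Probes needed more than 50% of spots well above background in one genotype on both arrays, which 28176 of 39429 passed (16 of the 17 member probes). Each gene was its brightest probe, named through RefSeq (GRCm38.p6) where the accession matched (28328 probes). Ratios were tested against 0 with limma 3.58.1 in R 4.3.3, two-sided, with Benjamini-Hochberg adjustment over all genes, and the script was tested on simulated data. SDs are between arrays (n = 2). The number of animals behind an RNA is not given, so p-values measure only the spread between these pairs. Dye orientation and pair changed together, and sex-linked genes differ within array 1.

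The members and lists were chosen with earlier results of these data known. Named are all members, and Myl9 for its printed promoter. Of each list, up to 6 genes with the largest mean of like sign on both arrays are named. So are those of opposite signs that differ by at least 0.5. A gene that this rule names is not reported here. Lists and promoters were matched by symbol. Exon or UTR positions of the probes were not determined.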

Additional observations from a re-analysis of the deposited data

Results flagged for a closer look

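The 2 arrays, labelled as a female and a male pair, went opposite ways for 6 of the 10 regulators, although 38.5% of all genes do the same. The log2 ratios of Rbpj-cKO over control on array 1 and array 2 were 0.23 and -0.11 for Elk1, -0.17 and 0.011 for Foxo4, -0.049 and 0.18 for Gata6, -0.082 and 0.030 for Klf4, -0.092 and 0.015 for Mkl1, and 0.030 and -0.27 for Myocd. The Elk1 values are those of the bright probe that also names Glrx2 and Mfsd4a, and the single-gene Elk1 probe had the opposite signs, -0.175 and 0.0351. Which members are split also depends on the processing. Under the scanner's log ratio Elk1 (0.0536 and 0.0346) and Gata6 (0.0605 and 0.1445) were higher on both arrays. Srf was then split (0.03 and -0.0956). With 1 array of each kind no test of the difference was run, and pair and dye orientation cannot be told apart. Since Y-linked genes go against the label of array 1, the contrast is between arrays and not between sexes.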

How the results depend on the processing

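No setting called any member, and Mef2c, the lowest, stayed between -0.35 and -0.31 under the 10 alternatives with both arrays (adjusted p between 0.373 and 0.623). Across the members these alternatives kept the direction 96 times and reversed it 5 times, with Foxo4 at 0 in the series table counted as kept. Many kept directions could not have differed. The settings without a filter, with trend and robust, and with 4 channels gave every member the same mean as the main fit. The mean over probes did so for members with a single kept probe. Reversed were Mkl1 (0.0071) and Klf4 (0.0094) with the series table, Mkl2 (-0.0089) and Elk1 (-0.003) with the mean over probes, and Elk1 (-0.07) by its single-gene probe, a choice made after seeing the data. The cause was not tested. With the scanner's log ratio or the series table, only 1 member was lower and 4 were higher on both arrays, with median centring 5 and 0, and with the mean over probes 1 was higher. Median centring left 6 smooth muscle targets lower on both arrays, 0 actin cytoskeleton targets lower and 2 higher, and 0 immediate early targets higher. Immediate early targets higher on both numbered 2 with the scanner's log ratio and with the mean over probes, and 3 with the series table. With the mean over probes 11 paralogs and cofactors were lower.

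With 1 array left there is no test. Members lower numbered 4 without array 1 and 6 without array 2, and those higher 6 and 4. Smooth muscle targets higher numbered 0 and 3, actin cytoskeleton targets lower 4 and 4 and higher 8 and 8, immediate early targets lower 4 and 5 and higher 4 and 3, and paralogs and cofactors lower 13 and 11 and higher 11 and 13. The sign of the 6 members with opposite signs then follows the array kept: Myocd ranged from -0.27 to 0.0297, Mkl1 from -0.0922 to 0.0145, Klf4 from -0.0819 to 0.0303, Elk1 from -0.11 to 0.23, Foxo4 from -0.17 to 0.0109 and Gata6 from -0.0486 to 0.18. The ratio within an array already pairs its RNAs, and the unpaired fit of the 4 channels with no replicate block called 0 members (smallest adjusted p 0.454). Foxo4, Egr3 and Abra are limited by faint signal. Egr2 and the single-gene Elk1 probe were also faint, with log2 levels between 7.98 and 8.67.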
